A study of Mus musculus with 12 samples.

Results

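Liver transcripts of Clk/Clk mice fed bezafibrate were compared with those of untreated wild-type mice. The comparison takes the 3 arrays labelled as bezafibrate-treated Clock mutant liver and the 3 labelled as wild-type liver without treatment, 6 of the 12 arrays of the series, over every probe set. Bezafibrate, a fibrate that activates peroxisome proliferator-activated receptors (PPARs), was mixed into the diet at 0.5% (w/w) for 5 days. All mice were males aged 6 to 12 weeks, kept under 12 h of light and 12 h of dark, and livers were taken at ZT14, early in the dark phase. Clk/Clk and wild-type mice were of the Jcl:ICR strain. The other 6 arrays were 3 of wild-type mice on the same diet and 3 of PPARα-null mice on it, whose null allele came from the line 129S4SvJae-PPARalphatm1Gonz/J crossed with Jcl:ICR. Genotype and drug differ together between the 2 groups compared, and untreated Clk/Clk liver was not analysed here. A difference between them therefore cannot be assigned to the mutation or to the drug, and the contrast of Clk/Clk with wild type, both on bezafibrate, is given beside it. No batch or scan date appears in the labels, which number the replicates of a group without saying that each came from its own animal, so p-values measure the spread between these samples, which may be technical.

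CLOCK and its partner BMAL1 (gene Arntl) form the activator of the circadian clock. The pair binds E-box sequences and drives the Per and Cry repressors, the REV-ERB receptors and output factors such as DBP, whose PAR bZIP family binds D-boxes in genes of liver metabolism. The Clk allele gives a CLOCK protein that still pairs with BMAL1 but activates transcription poorly. PPARα is the nuclear receptor through which fibrates raise fatty acid oxidation in rodent liver.

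The values are log2 expression values, and a difference of 1 log2 unit is 2-fold. Arrays of the same group correlated at 0.993 to 0.996 over all probe sets, and Clk/Clk arrays correlated with untreated wild-type arrays at 0.969 to 0.973. Of 13598 genes tested, the median standard error (SE) of a difference was 0.0996, with 3 samples a group. Calls needed a limma p under 0.05 after Benjamini-Hochberg adjustment together with a difference of 1.5-fold or more. A probe set below 4.87 to 4.92, the 40th percentile of its array, was treated as dim, and folds that end at such a level are not exact. Of 7 hepatocyte markers tested 3 were lower, 42.9% against 8.82% of all genes, and none higher, with a median of -0.37. These were Tat, a tyrosine aminotransferase (-1.24), Fah (-0.79) and Hnf4a (-0.62), while the secreted proteins Alb, Apoa1 and Ttr, bright in every sample, differed by -0.04, -0.01 and -0.07.

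Treated Clk/Clk liver differed from untreated wild-type liver in 2646 of the 13598 genes. Of these, 1447 were higher, 10.6% of the genes tested, and 1199 were lower, 8.82%. At least 4-fold differences were seen for 144 genes that were higher and 137 that were lower. Against wild type on the same drug, Clk/Clk liver had 359 genes higher, 2.64%, and 882 lower, 6.49%. That last split depended on scaling: with the array medians over the tested genes made equal it was 494 higher and 718 lower. The shares over all genes are the background for every count of list members below. They are 10.6% higher and 8.82% lower against untreated wild type, and 2.64% and 6.49% against treated wild type. The plot of level against difference shows the spread of the first contrast.

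**Figure D1:**
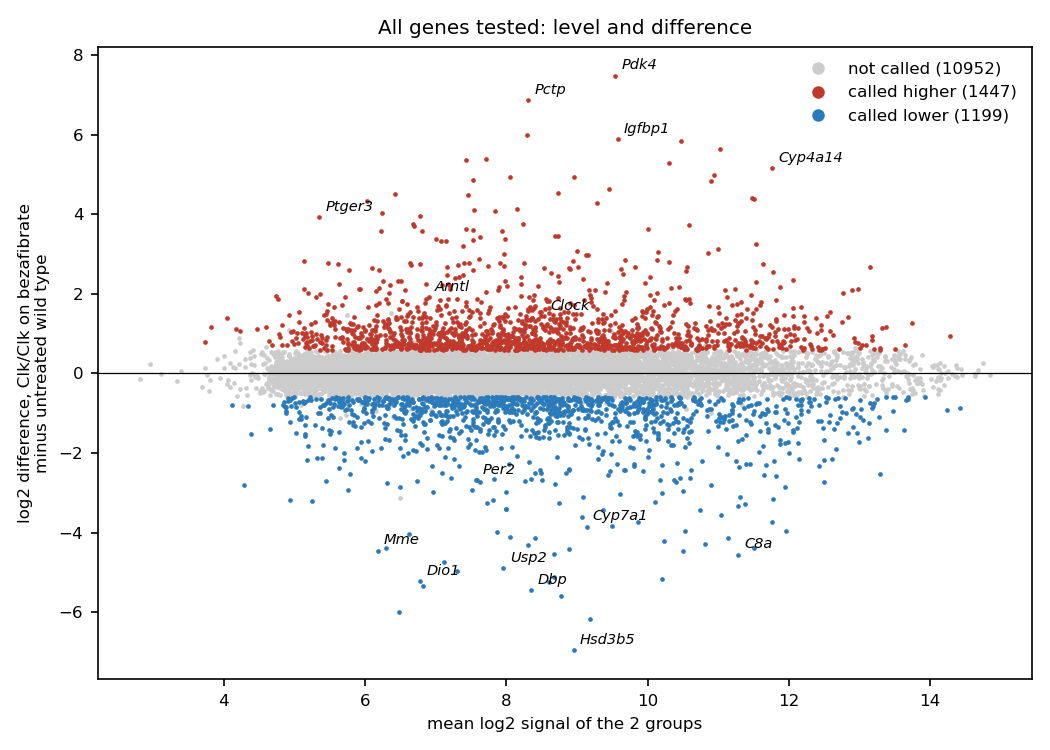
Each point is 1 of 13598 genes. The x axis is the mean log2 signal of the 2 groups and the y axis is the log2 difference of Clk/Clk on bezafibrate minus untreated wild type; red points are the 1447 genes called higher and blue points the 1199 called lower. Pdk4 lies at the top (7.48) and Hsd3b5 at the bottom (-6.96).

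In the clock loop, several repressors were lower and the activators Clock and Arntl were higher. All livers were taken at ZT14, so a changed level over the day and a shift in its timing cannot be told apart. Of 18 clock loop genes tested, 9 were lower (50% against 8.82% of all genes) and 2 were higher, with a median difference of -0.65 against 0.01 over all genes. Clock itself read 7.89, 7.57 and 7.97 in the 3 untreated samples and 9.37, 9.32 and 9.07 in the 3 Clk/Clk samples. The groups did not overlap, and the difference was 1.44 (SE 0.159, adjusted p = 2.12e-05). Its 4 probe sets gave 1.44, 1.01, 0.79 and 0.02. The files do not place these probe sets against the mutation, and the values check no genotype. Arntl read 5.89, 5.94 and 5.97 in untreated samples and 7.94, 8.32 and 7.33 in Clk/Clk samples, 1.93 higher (SE 0.2, adjusted p = 1.34e-05). In treated wild type it read 4.91 to 5.39, so the Clk/Clk level lay above both wild-type groups and was 2.66 above treated wild type (SE 0.2, adjusted p = 2.11e-05). A second, dimmer Arntl probe set differed by only -0.05 (adjusted p = 0.685 where it represented the gene), so the rise rests on 1 of 2 probe sets. Npas2, a paralogue of Clock, differed by 0.56 (adjusted p = 0.00307), below the 1.5-fold threshold, although it passed without Clk/Clk replicate 2 (0.65) or untreated replicate 2 (0.68).

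Among the repressors, Per2 had the largest difference. It read 9.04, 9.01 and 8.70 in untreated samples, 6.09, 5.38 and 7.21 in Clk/Clk samples, and 8.28 to 8.50 in treated wild type. All Clk/Clk values lay below all others, with a difference of -2.69 from untreated wild type (SE 0.343, adjusted p = 6.53e-05) and of -2.16 from treated wild type (adjusted p = 0.00125). Per3 read 8.24, 8.63 and 8.27 in untreated samples against 6.14, 6.13 and 7.35 in Clk/Clk samples. The difference was -1.84 (SE 0.261, adjusted p = 1.45e-04), while treated wild type differed from untreated by -0.23. The 6 probe sets of Per3 were all negative but ran from -1.84 to -0.05. Bhlhe40 (DEC1), which also represses E-box genes, fell from 11.06 to 11.32 in untreated samples to 8.50 to 8.96 in Clk/Clk samples. The difference was -2.46 (SE 0.257), and -1.90 from treated wild type (adjusted p = 5.43e-04). Nr1d2 (REV-ERBβ) was lower, at -1.27, and at -0.85 against treated wild type, a call that was lost without Clk/Clk replicate 1 (-0.58) or with only the 6 arrays of these 2 groups fitted (adjusted p = 0.0563).

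A second set of repressors was low in both treated genotypes. Per1 differed from untreated wild type by -1.18 in Clk/Clk (SE 0.214, adjusted p = 8.49e-04) and by -1.32 in treated wild type. Cry2 gave -0.78 and -0.67, Ciart -1.54 and -0.86, and Cry1 -0.98 and -1.50. None of these 4 passed the test of Clk/Clk against treated wild type, although Cry1 did so without treated wild-type replicate 3 (0.75) or with array medians made equal (0.60). Ciart passed it when only the 6 arrays of these 2 groups were fitted (adjusted p = 0.0474). Nfil3, a repressor of D-box genes, was lower by less in Clk/Clk (-0.85, adjusted p = 0.0177) than in treated wild type (-1.91), and was 1.06 higher than in treated wild type (adjusted p = 0.0117). Its call against untreated wild type was lost without Clk/Clk replicate 1 (-0.76, adjusted p = 0.0623) or untreated replicate 3 (-0.77, adjusted p = 0.0599). Nr1d1 (REV-ERBα) at 0.17 (adjusted p = 0.238), Rora at -0.30 (adjusted p = 0.0298) and Bhlhe41 at 0.20 (adjusted p = 0.0702) were not called. The 8 probe sets of Rora disagreed, from -1.71 to 0.26, with 6 of them negative.

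**Figure D2:**
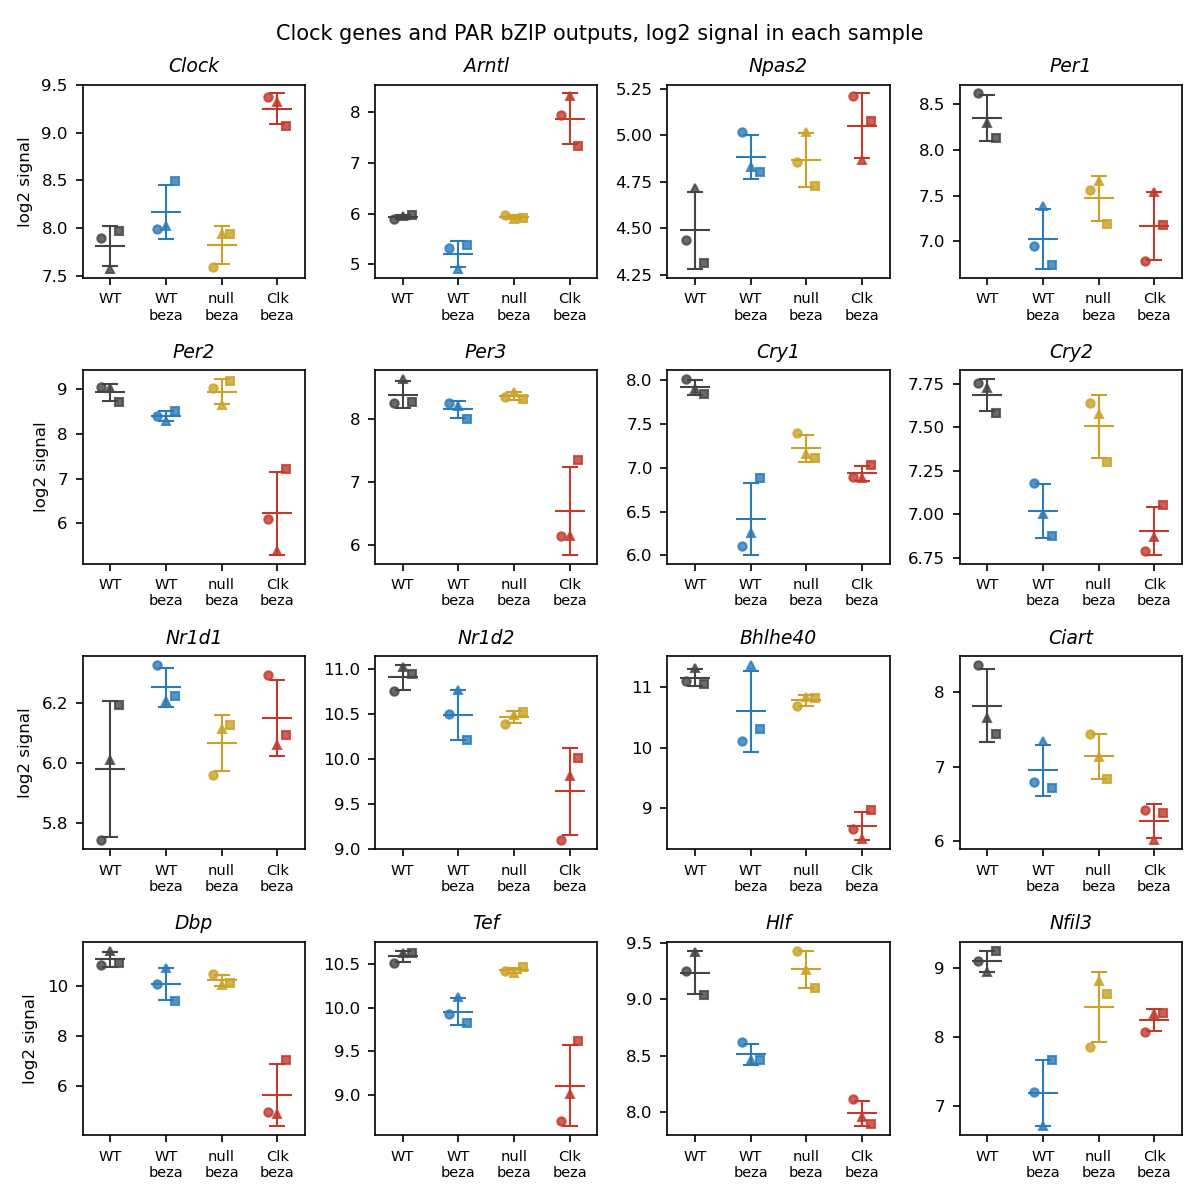
Log2 signal (y axes, each on its own scale) of 16 clock genes in each of 12 samples, by group (x axes: WT, untreated wild type; WT beza, null beza and Clk beza, the groups fed bezafibrate). Circles, triangles and squares are replicates 1, 2 and 3; bars are the mean and SD of 3 samples. Per2, Per3, Bhlhe40, Dbp and Tef are lowest in Clk/Clk samples, Arntl and Clock are highest there, and Clk/Clk replicate 3 has the highest Dbp, Per2, Per3 and Tef of its group.

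Direct outputs of the clock were lower as well. Of 18 tested, 11 were lower, 61.1% against 8.82% of all genes, and Insig2 (1.98), a regulator of sterol synthesis, was the 1 called higher; the median difference was -0.95. Dbp, the best known PAR bZIP output, read 10.84, 11.42 and 10.94 in untreated samples and 4.96, 4.86 and 7.06 in Clk/Clk samples. Treated wild type read 10.10, 10.72 and 9.42, and PPARα-null samples 10.06 to 10.48. The Clk/Clk values were lower than every other, at -5.44 from untreated wild type (43.4-fold, SE 0.5, adjusted p = 5.22e-06) and -4.45 from treated wild type (adjusted p = 1.91e-04). Usp2, a deubiquitinase under clock control, read 10.24 to 10.50 in untreated samples and 5.38, 5.06 and 6.10 in Clk/Clk samples, at -4.90 (SE 0.286, adjusted p = 1.75e-07). It lay at 8.41 to 9.37 in treated wild type, between the 2 groups. Tspan4, a tetraspanin, gave -3.04 (SE 0.168) and Hes6, a HES family factor, -2.28 (SE 0.169), and both were also lower than in treated wild type (-2.31 and -1.04). The remaining PAR bZIP genes differed by less: Tef by -1.49 (SE 0.179, adjusted p = 4.12e-05) and Hlf by -1.24 (SE 0.113, adjusted p = 4.64e-06). Tef was lower than in treated wild type (-0.85, adjusted p = 0.00586), though not past 1.5-fold when its probe sets were averaged (-0.58). Hlf was not called there (-0.52), but was so without Clk/Clk replicate 1 (-0.59). Within the Clk/Clk group, replicate 3 had the highest Dbp, Per2, Per3, Tef and Usp2 and the lowest Arntl.

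Promoter windows of the clock genes that were lower are shown for the sequence at which CLOCK or its D-box outputs can act. The windows run from 250 bases before to 50 after the annotated start, from RefSeq on GRCm38.p6. Capitals mark the motifs searched on both strands: the E-box CACGTG, the D-boxes TTATGTAA and TTACGTAA, and the PPAR response element with its direct repeat.
Ciart (chr3:95882179-95882478, minus strand): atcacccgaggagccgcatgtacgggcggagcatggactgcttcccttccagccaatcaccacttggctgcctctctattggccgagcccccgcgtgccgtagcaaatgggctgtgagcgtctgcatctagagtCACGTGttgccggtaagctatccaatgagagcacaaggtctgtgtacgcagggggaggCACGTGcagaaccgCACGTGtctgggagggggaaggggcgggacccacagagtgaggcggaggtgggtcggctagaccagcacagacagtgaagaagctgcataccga
Per1 (chr11:69098699-69098998, plus strand): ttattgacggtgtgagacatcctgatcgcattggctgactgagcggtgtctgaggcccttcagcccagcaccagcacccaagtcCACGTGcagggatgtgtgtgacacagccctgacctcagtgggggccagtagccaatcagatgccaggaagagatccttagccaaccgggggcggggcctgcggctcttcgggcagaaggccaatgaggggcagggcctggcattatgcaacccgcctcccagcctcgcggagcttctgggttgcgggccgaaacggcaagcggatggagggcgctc
Tef (chr15:81802423-81802722, plus strand): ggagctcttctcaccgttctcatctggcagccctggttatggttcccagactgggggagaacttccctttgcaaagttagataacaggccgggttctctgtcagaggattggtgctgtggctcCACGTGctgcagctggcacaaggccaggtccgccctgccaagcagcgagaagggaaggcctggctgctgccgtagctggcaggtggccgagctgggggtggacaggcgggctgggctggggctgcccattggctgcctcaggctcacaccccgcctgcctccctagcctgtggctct
Tspan4 (chr7:141476130-141476429, plus strand): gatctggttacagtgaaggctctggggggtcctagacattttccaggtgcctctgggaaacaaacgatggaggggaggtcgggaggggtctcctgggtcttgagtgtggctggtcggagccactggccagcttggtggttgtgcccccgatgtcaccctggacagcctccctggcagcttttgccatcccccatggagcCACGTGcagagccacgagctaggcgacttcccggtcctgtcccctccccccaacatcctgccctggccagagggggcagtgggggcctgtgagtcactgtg
Per3 (chr4:151044616-151044915, minus strand): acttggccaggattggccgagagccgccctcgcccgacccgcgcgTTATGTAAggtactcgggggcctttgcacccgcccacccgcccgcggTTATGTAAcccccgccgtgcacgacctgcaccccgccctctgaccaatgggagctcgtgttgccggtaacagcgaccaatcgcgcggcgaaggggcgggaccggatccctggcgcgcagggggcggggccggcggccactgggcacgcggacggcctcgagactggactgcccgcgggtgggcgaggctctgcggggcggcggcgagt
Ciart holds 3 E-boxes, starting at positions -116, -58 and -44 from the start site. Per1 holds 1 at -166, Tspan4 1 at -51 and this Tef window 1 at -127. Per3 holds no E-box but 2 copies of TTATGTAA, at -205 and -158. Of the 20 clock and output genes that were lower, 16 had a window, and 5 of them held an E-box: the 4 named above and Cry1 (at -60). An E-box was found in 7.15% of all 32851 windows, and 11.3% of the 10926 tested genes with a window had one. TTATGTAA was found in 0.938% of windows. Dbp and Usp2 hold none of these motifs in their windows, and windows of Per2, Bhlhe40, Wee1 and Gys2 were not used here. A match describes letters in a short window and shows no binding.

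The largest rise was that of Pdk4, and each of the genes described next was also higher in treated wild type. Pdk4, a kinase that limits glucose oxidation, read 5.45, 5.48 and 6.46 in untreated samples and 13.22, 13.38 and 13.24 in Clk/Clk samples. Its difference was 7.48 (179-fold, SE 0.365, adjusted p = 4.54e-08), beside 7.32 in treated wild type and 4.22 in PPARα-null samples. Pctp, a phosphatidylcholine carrier, differed by 6.87 (SE 0.2), Vnn1, a pantetheinase, by 5.85 (SE 0.421) and Acot2, a mitochondrial acyl-CoA thioesterase, by 5.65 (SE 0.219). For these 4 genes Clk/Clk lay within 0.05 to 0.33 of treated wild type, and none passed that test. With its 2 probe sets averaged, Acot2 did so (0.88, adjusted p = 0.0071). Pctp's untreated mean was 4.88, at the dim limit, and its other probe set, at 6.70 there, differed by 2.39. Fabp3, a fatty acid binding protein, read 5.18 to 5.44 in untreated samples and 10.71 to 11.69 in Clk/Clk samples, against 5.47 to 5.63 in PPARα-null samples. Cd36, a fatty acid transporter, gave 5.29 (SE 0.101), Cyp4a14, a fatty acid hydroxylase, 5.17 (SE 0.429), and Fabp4 4.85 (SE 0.237). Untreated replicate 3 had the highest Pdk4, Pctp, Vnn1, Acot2 and Cyp4a14 of its group (Cyp4a14 10.44 against 8.48 and 8.61). Cyp4a14 and Ehhadh read 14.31 or more in every Clk/Clk sample, near the top of the scale. Cyp4a and Acot genes have near copies that could add to each other's signal on the array.

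**Figure D3:**
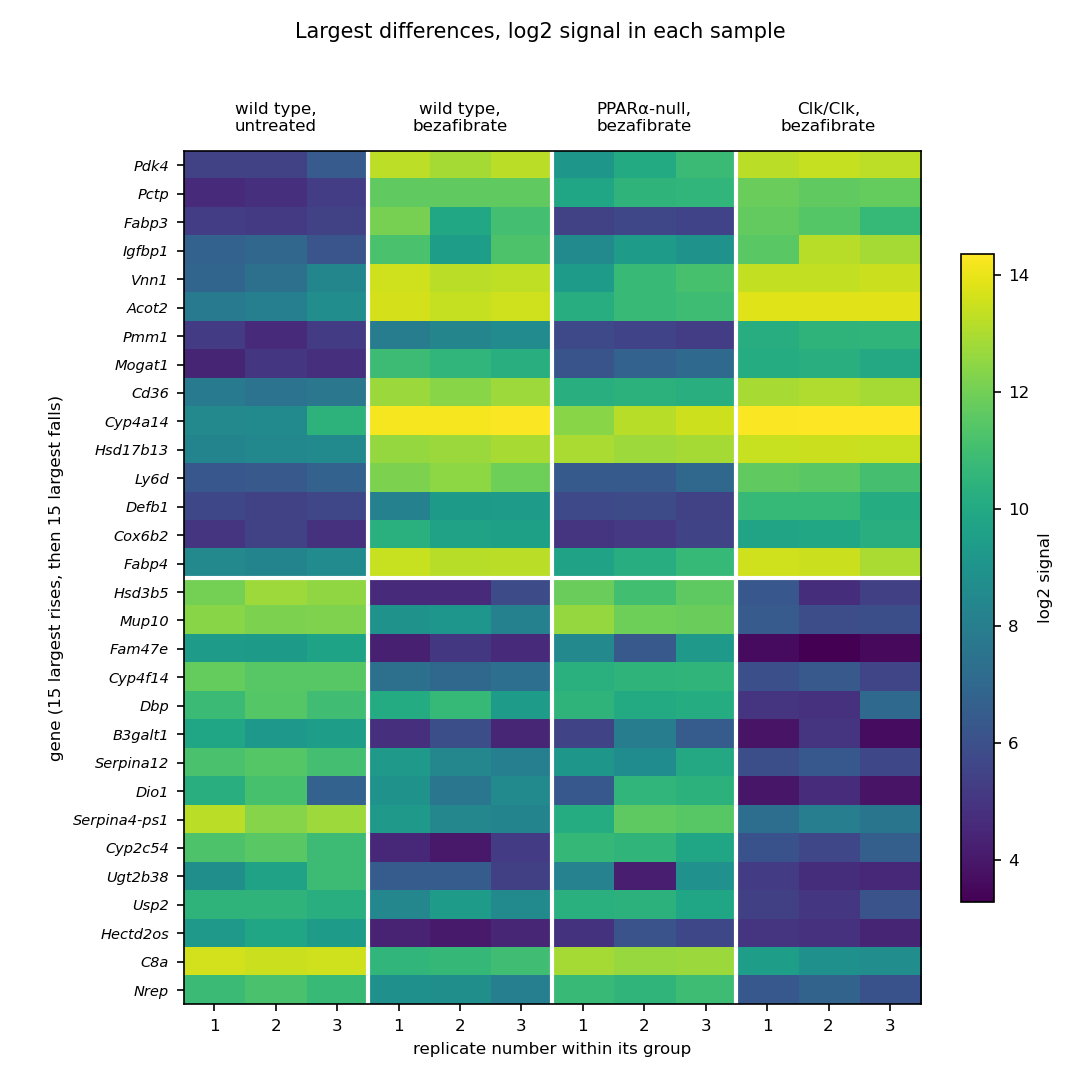
Log2 signal (colour) of the 15 genes with the largest rises (upper block) and the 15 with the largest falls (lower block) in Clk/Clk on bezafibrate against untreated wild type. Columns are replicates 1 to 3 of each of the 4 groups. In the upper block, Clk/Clk and treated wild-type columns are alike for most genes, with Igfbp1, Pmm1 and Defb1 brighter in Clk/Clk; in the lower block Dbp and Usp2 are dark in the Clk/Clk columns.

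Fatty acid oxidation genes were higher in the same way. In the list of mitochondrial fatty acid oxidation and ketogenesis, 20 of 28 genes were higher (71.4%, against 10.6% of all genes) and none lower. The list was broad and included the kinase gene Pdk4 (7.48), so it was not made of oxidation enzymes alone. Their median was 1.16, beside 0.96 in treated wild type and 0.20 in PPARα-null samples. Acot1 gave 4.40 (SE 0.13), the carnitine transporter Slc22a5 3.05 (SE 0.116) and Eci1, an enoyl-CoA isomerase, 2.35 (SE 0.0651). The hormone Fgf21 read 5.71 to 5.79 in untreated samples and 8.95, 9.19 and 9.86 in Clk/Clk samples, at 3.59 (SE 0.323, adjusted p = 4.38e-06). Its difference from treated wild type was 0.39 (adjusted p = 0.406), and it passed that test without treated wild-type replicate 3 (0.83). Cpt1a, which admits long-chain fatty acids to mitochondria, differed by 0.12 (SE 0.119, adjusted p = 0.43). Of 34 peroxisomal genes 2 were lower (5.88%, against 8.82% of all genes), or 1 without untreated replicate 2 or with probe sets averaged. The median was 0.83, and 19 were higher (55.9%, against 10.6% of all genes). They included Ehhadh at 2.67 (SE 0.127), the peroxisome proliferation factor Pex11a at 2.17 (SE 0.094), Acot8 at 1.98 (SE 0.0872) and the carnitine acyltransferase Crot at 1.44 (SE 0.0661). A second Crot probe set, less bright, gave -0.03 (adjusted p = 0.911), and a second of Fabp3 -0.04 (adjusted p = 0.726). Set against treated wild type, 1 peroxisomal gene was higher and 1 lower, and 1 mitochondrial gene was higher and 1 lower. The mitochondrial gene was not called higher without Clk/Clk replicate 2 or 3, and 2 were higher without treated wild-type replicate 3.

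In fatty acid uptake, binding and droplet storage, 21 of 28 genes were higher (75%, against 10.6% of all genes) and 2 lower (7.14%, against 8.82%). The median was 1.38 (1.21 without Clk/Clk replicate 2). Against treated wild type 4 were higher and 2 lower, where 2.64% and 6.49% of all genes were. Vldlr, a lipoprotein receptor, read 6.92 to 7.29 in untreated samples and 11.66 to 11.86 in Clk/Clk samples, at 4.64 (SE 0.19), and exceeded treated wild type by 1.07 (adjusted p = 0.00234). Plin2, a lipid droplet coat protein, gave 2.10 (SE 0.0877) and Pnpla2, the main triglyceride lipase, 1.98 (SE 0.0939). Pnpla3, a lipogenic lipase homologue, went against the list. It read 6.75, 6.55 and 6.03 in untreated samples and 6.58, 5.74 and 6.86 in Clk/Clk samples, at -0.05 (SE 0.415, adjusted p = 0.94). In treated wild type it read 9.24 to 10.09 and in PPARα-null samples 8.05 to 9.79, and Clk/Clk differed from treated wild type by -3.24 (adjusted p = 4.01e-04). In triglyceride synthesis 7 of 17 genes were higher (41.2%, against 10.6% of all genes) and 2 lower (11.8%, against 8.82%, or 1 gene without Clk/Clk replicate 1). The higher genes included the acyltransferases Mogat1 (5.37), Gpam (1.68) and Agpat3 (1.27, or 0.25 and not called once probe sets that may match several transcripts were left out). In omega-oxidation 3 of 14 were higher and 3 lower, 21.4% each against 10.6% and 8.82% of all genes, with Aldh3a2, a fatty aldehyde dehydrogenase, at 2.74 and Cyp4f14, another hydroxylase, at -5.59 (SE 0.169).

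Genes of fatty acid synthesis were higher by less than in treated wild type. Of 23 tested, 10 were higher (43.5%, against 10.6% of all genes) and 4 lower (17.4%, against 8.82%) than in untreated wild type. The median was 0.35 (0.13 without Clk/Clk replicate 3 and 0.61 without probe sets that may match several transcripts), beside 1.12 in treated wild type and 0.75 in PPARα-null samples. In the direct test against treated wild type 13 were lower, 6.49% of all genes being so, and 1 was higher. Me1, which supplies NADPH, read 10.78, 11.11 and 10.81 in untreated samples, 12.86, 12.87 and 12.50 in Clk/Clk samples and 13.63 to 14.04 in treated wild type. The 3 groups did not overlap: the difference was 1.84 from untreated wild type (SE 0.141, adjusted p = 1.30e-06) and -1.08 from treated wild type (adjusted p = 4.57e-04). Pgd, of the pentose phosphate pathway, gave 1.25 and -0.79, and Acacb, an acetyl-CoA carboxylase, 1.58 and -0.74 (-0.36, not called, when its probe sets were averaged). Elovl3, a very-long-chain elongase, was the 1 higher than in treated wild type: it read 7.50 to 7.79 in untreated samples, 7.83 to 8.78 in treated wild type and 10.03 to 10.70 in Clk/Clk samples, at 2.69 (SE 0.256).

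In cholesterol synthesis 13 of 20 genes were higher (65%, against 10.6% of all genes) and 1 lower (5%, against 8.82%) than in untreated wild type. The median was 1.07, beside 1.43 in treated wild type. Hmgcs1, which starts the pathway's committed steps, gave 2.55 (SE 0.158), Fdps, which makes farnesyl diphosphate, 2.15 (SE 0.271) and Hsd17b7 1.04 (SE 0.137). The 1 lower was Stard4, a sterol carrier, at -1.31 (SE 0.197). Clk/Clk replicate 3 was the highest of its group for these 4 genes, with Fdps at 12.14 against 11.10 and 10.98. Without it the median was 0.72 and 2 genes were lower, as also without untreated replicate 1 or 2 and with either other normalization or array weights. Against treated wild type 5 of the 20 sterol genes were lower, where 6.49% of all genes were, and none was higher. The median there was -0.52 (-0.85 without Clk/Clk replicate 3 and -0.33 without Clk/Clk replicate 2). The 5 became 13 without Clk/Clk replicate 3, 2 without Clk/Clk replicate 2, and 3 without Clk/Clk replicate 1 or treated wild-type replicate 2.

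Genes of DNA replication and mitosis were lower in Clk/Clk liver than in treated wild type, and few differed from untreated wild type. Of 38 tested, 3 were higher (7.89%, against 10.6% of all genes) and 4 lower (10.5%, against 8.82%), with a median of -0.22. The median of the same genes was 1.74 in treated wild type and 0.99 in PPARα-null samples. In the direct test 29 of the 38 were lower in Clk/Clk than in treated wild type, against 6.49% of all genes, and none was higher. Uhrf1, which maintains DNA methylation at replication, read 4.89, 4.47 and 5.22 in untreated samples, 4.93, 4.35 and 4.44 in Clk/Clk samples, 7.74, 9.51 and 6.92 in treated wild type and 6.36 to 7.78 in PPARα-null samples. The Clk/Clk and untreated values overlapped and lay below all others, with Clk/Clk at -3.48 (adjusted p = 0.00129) from treated wild type. The replicative helicase genes Mcm2 and Mcm4 differed from untreated wild type by 0.29 and 0.19 and from treated wild type by -2.54 and -2.77. The licensing factor Cdt1 gave 0.21 against untreated and -2.45 against treated wild type, and Cdc6 -2.99 against treated wild type. Chek1, the replication checkpoint kinase, Trip13, of the mitotic checkpoint, and Lig1, the replicative ligase, were at -0.07 to 0.09 from untreated and -3.04 to -2.56 from treated wild type. Zwilch, of the kinetochore, was at -3.17 from treated wild type. The means of Uhrf1, Cdc6 and Zwilch were under the dim limit in both Clk/Clk and untreated samples, so those 2 groups could not be compared for them and their distance from treated wild type is not exact. These 8 genes and Uhrf1 were picked by their calls in the wild-type and treated contrasts, so their values describe the pattern and test nothing further. Treated wild-type replicate 2 was the highest of its group for each of these 9 genes.

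Some replication and cycle genes were lower than in untreated wild type. Mcm10, a replication initiation factor, read 11.36 to 11.46 in untreated samples and 7.47, 7.78 and 7.51 in Clk/Clk samples, at -3.82 (SE 0.24, adjusted p = 2.75e-07). It was also low in treated wild type (7.50 to 8.74) and -0.57 apart from it (adjusted p = 0.103), but called lower without treated wild-type replicate 3 (-0.90, adjusted p = 0.00299). A second, dimmer Mcm10 probe set read 5.48 on average in untreated samples and differed by -1.06. Its Clk/Clk mean of 4.43 was under the dim limit. Tk1, a thymidine kinase of S phase, gave -1.49 (SE 0.228) and differed from treated wild type by -1.04 (adjusted p = 0.00746). Cdkn1a (p21), a cycle inhibitor, was higher at 2.51 (SE 0.287) and within 0.05 of treated wild type. Ccnd2 gave -0.57 (adjusted p = 8.46e-04), below the fold threshold. It passed without Clk/Clk replicate 3 (-0.63) or untreated replicate 1 (-0.61), with array medians made equal (-0.60) and with array weights (-0.59).

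Interferon-stimulated genes gave a like picture. Of 24 tested, 3 were higher (12.5%, against 10.6% of all genes) and 2 lower (8.33%, against 8.82%) than in untreated wild type. The median was -0.06, beside 1.43 in treated wild type and 0.12 in PPARα-null samples. In the direct test 15 were lower than in treated wild type, where 6.49% of all genes were. Ifih1, a sensor of double-stranded RNA, read 9.07 to 9.33 in untreated samples, 8.35, 7.89 and 8.41 in Clk/Clk samples and 10.00, 9.25 and 8.98 in treated wild type. It was lower than both, at -0.99 (adjusted p = 0.00675) and -1.19 (adjusted p = 0.00556). Stat2, a factor of interferon signalling, gave -0.92 (SE 0.137). Rsad2 (viperin) and Cmpk2, which are neighbours in the genome, were higher than in untreated wild type by 2.19 (SE 0.407) and 1.84 (SE 0.341). A second, dimmer Cmpk2 probe set differed by only 0.32 (limma adjusted p = 0.154). The mean of the 24 genes relative to untreated wild type was 0.11, -0.25 and 0.35 in the Clk/Clk samples and 2.06, 1.33 and 0.75 in the treated wild-type samples, which did not overlap.

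**Figure D4:**
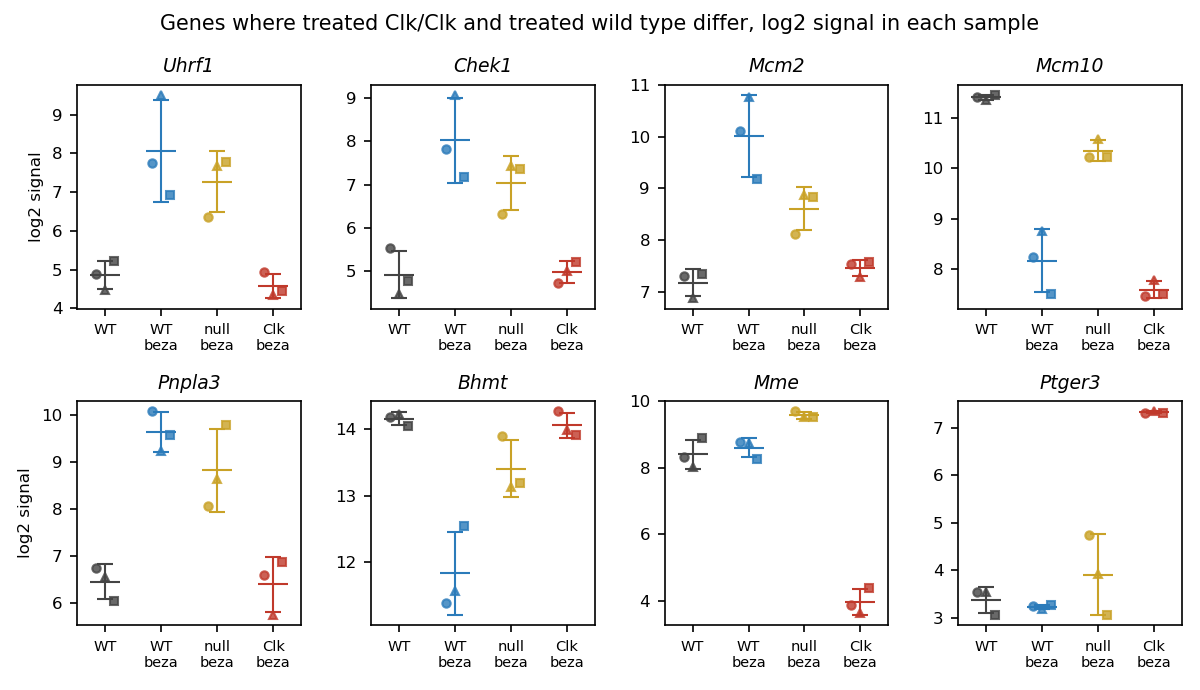
Log2 signal (y axes, each on its own scale) of 8 genes in each of 12 samples, by group (x axes as in the plot of clock genes). Circles, triangles and squares are replicates 1, 2 and 3; bars are the mean and SD of 3 samples. Uhrf1, Chek1, Mcm2 and Pnpla3 are high in treated wild type and PPARα-null samples and overlap between untreated wild type and Clk/Clk; Mme is low and Ptger3 high in the Clk/Clk samples.

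Another group of genes differed in Clk/Clk from both wild-type groups, which were within 0.3 log2 units of each other. These genes were picked by that pattern, and their values describe it. Mme, the peptidase neprilysin, read 8.31, 8.03 and 8.88 in untreated samples, 8.28 to 8.79 in treated wild type and 9.51 to 9.70 in PPARα-null samples, but 3.86, 3.62 and 4.37 in Clk/Clk samples. That is -4.46 from untreated wild type (SE 0.23, adjusted p = 7.06e-08), with the Clk/Clk level under the dim limit, so the size is not exact. A second Mme probe set, less bright, gave -1.38. Ptger3, a prostaglandin E receptor, went the other way, from 3.07 to 3.54 in untreated samples to 7.31, 7.35 and 7.31 in Clk/Clk samples (3.94, SE 0.309), with all other groups dim. Zfas1 and Gas5, noncoding host genes of small nucleolar RNAs, were higher at 2.06 (SE 0.113) and 1.61 (SE 0.182). Zfas1 read 8.35 to 8.39 in untreated samples, 8.39 to 8.46 in treated wild type and 10.28, 10.36 and 10.64 in Clk/Clk samples. Chka, a choline kinase, gave 1.38, Cyp2c39 1.87 and Serpinb1a 1.71. PPARα-null samples lay above untreated wild type for Serpinb1a (2.17) and Cyp2c39 (1.03), and below it for Chka (-0.61). Once probe sets that may match several transcripts were left out, Gas5 gave 0.41 (adjusted p = 0.198), and Gpr135, at 1.42 on its brightest probe set, gave -0.18 (adjusted p = 0.101). Lower genes were Nxpe2 (-1.87, Clk/Clk dim), A2ml1 (-1.77), the ubiquitin ligase Trim7 (-1.69), Tmem107 (-1.59), the chaperone Hspa13 (-1.53), the phosphodiesterase Pde7b (-1.35), Ptgr1 (-1.35) and the uracil glycosylase Ung (-1.33). In PPARα-null samples A2ml1 differed from untreated wild type by -1.68 and Pde7b by -1.88, so those levels were low there too. Ptgr1 was not called without Clk/Clk replicate 3 (-1.02, adjusted p = 0.0601), nor was it then against treated wild type (-1.23). A2ml1 lost its call against treated wild type without Clk/Clk replicate 3 (-1.58) or treated wild-type replicate 2 (-1.66).

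For other genes the difference ran in the direction of treated wild type and was larger. These genes were picked by that pattern, so their calls and lack of overlap describe it and test nothing further. Igfbp1, an insulin-like growth factor binding protein, read 6.21 to 6.92 in untreated samples and 11.54, 13.16 and 12.86 in Clk/Clk samples, at 5.89 (59.2-fold, SE 0.502). It exceeded treated wild type by 1.88 (adjusted p = 0.0187), a call lost without Clk/Clk replicate 2 (1.56), Clk/Clk replicate 3 (1.71) or treated wild-type replicate 2 (1.29), or with only the 6 arrays of these 2 groups fitted (adjusted p = 0.0664). Pmm1, a phosphomannomutase, read 4.67 to 5.23, then at most 8.64 in treated wild type and 10.17 to 10.55 in Clk/Clk samples, with no overlap, at 5.38 (SE 0.194) and 2.09 above treated wild type (adjusted p = 7.32e-05). Npnt, a matrix protein, gave 4.51, the receptor P2ry14 3.57 and P3h4 3.71, all above treated wild type by 1.85 to 2.46. The 4 probe sets of Npnt ran from 0.33 to 4.51 against untreated wild type. The stress factor Nupr1 gave 4.10, with 7.91, 10.08 and 10.81 in the Clk/Clk samples. Its excess over treated wild type (1.89, adjusted p = 0.0322) was lost without Clk/Clk replicate 2 (1.65), Clk/Clk replicate 3 (1.28), treated wild-type replicate 1 (1.92) or treated wild-type replicate 2 (1.58), with only those 6 arrays fitted (adjusted p = 0.107) or with trend and robust settings (adjusted p = 0.0546). Among the lower genes, the corticosteroid-binding globulin Serpina6 read 12.36 to 12.64 in untreated samples, 10.82 to 11.09 in treated wild type and 8.23 to 8.74 in Clk/Clk samples, at -3.96 (SE 0.136). Keg1 gave -3.10 (SE 0.0995), beside -0.77 in treated wild type.

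Genes of amino acid breakdown and the urea cycle were lower than in untreated wild type by less than in treated wild type. Of 43 tested, 14 were lower (32.6%, against 8.82% of all genes) and 2 higher (4.65%, against 10.6%). The median was -0.37, beside -0.82 in treated wild type and -0.24 in PPARα-null samples. Against treated wild type 17 were higher, where 2.64% of all genes were, and none was lower. Otc and Asl, enzymes of the urea cycle, gave -1.08 (SE 0.0787) and -0.98 (SE 0.104) from untreated and 0.77 and 1.02 from treated wild type. Fah, the last enzyme of tyrosine breakdown, gave -0.79 and 0.67. Cps1, which commits ammonia to urea, read 13.90 to 13.95 in untreated samples, 13.52 to 13.59 in Clk/Clk samples and 12.59 to 12.83 in treated wild type. It differed from untreated wild type by -0.37 (adjusted p = 0.00189), under 1.5-fold, and from treated wild type by 0.87 (adjusted p = 4.99e-05). Bhmt, which remethylates homocysteine, read 14.28, 13.98 and 13.92 in Clk/Clk samples against 14.05 to 14.24 in untreated samples and 11.37, 11.56 and 12.54 in treated wild type. Cth, of cysteine synthesis, gave -0.13 and 1.44 and the lysine-breakdown enzyme Aass -0.13 and 1.25 in the 2 contrasts. The cytochrome Cyp2b10, the carbonic anhydrase Car14 and the transporter Slco1a4 had the same pattern, at -0.07, -0.27 and 0.24 from untreated and 2.33, 1.96 and 2.34 from treated wild type. Bhmt, Cth, Aass and these 3 were picked by it.

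Male-predominant liver genes were among the largest falls. Of 20 tested, 16 were lower, 80% against 8.82% of all genes, and 2 were higher, with a median of -2.52 beside -1.43 in treated wild type and -0.18 in PPARα-null samples. The direct test against treated wild type gave 9 lower and 3 higher. Hsd3b5, a steroid dehydrogenase of male liver, read 12.05, 12.75 and 12.50 in untreated samples and 6.30, 4.72 and 5.39 in Clk/Clk samples, at -6.96 (125-fold, SE 0.416, adjusted p = 1.99e-07). Treated wild type gave -7.40 and PPARα-null samples -0.96. Slco1a1, an organic anion transporter, read 12.91 to 13.01 in untreated samples, 10.50 to 10.82 in treated wild type and 8.63 to 8.70 in Clk/Clk samples. The 3 groups did not overlap, and Clk/Clk was at -4.30 (SE 0.0801) from untreated and -1.99 (adjusted p = 4.02e-07) from treated wild type. Outside the list, the major urinary protein gene Mup10, of a family whose members share sequence, read 12.16 to 12.41, then 8.14 to 9.12 in treated wild type and 5.91 to 6.45 in Clk/Clk samples, at -6.16 (SE 0.266). The glucuronosyltransferase Ugt2b1 gave -3.73 (SE 0.104) and Serpina12 (vaspin) -5.24 (SE 0.341), both also lower than in treated wild type. Hsd3b2 gave -3.44 and was less low than in treated wild type, by 1.14 (adjusted p = 5.87e-04).

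Female-predominant genes gave 8 higher of 19, 42.1% against 10.6% of all genes, and 1 lower (2 without Clk/Clk replicate 3). Their median of 0.52 was not stable: it was 0.09 without probe sets that may match several transcripts, 0.32 with no filter and 0.81 with the 60th percentile filter. The cytochromes Cyp2b9 and Cyp2b13 and the peroxisomal transporter Abcd2 gave 3.74, 3.42 and 3.96 and were 3.61, 2.72 and 3.45 in treated wild type. In the growth hormone and IGF axis 10 of 17 genes were lower (58.8%, against 8.82% of all genes) and 2 higher (11.8%, against 10.6%), with a median of -1.20. Igf1, the growth hormone target made by liver, read 13.28 to 13.40 in untreated samples, 12.13 to 12.35 in treated wild type and 11.60 to 11.79 in Clk/Clk samples, at -1.67 (SE 0.0815). The receptor Ghr gave -1.40 (SE 0.0786) and Igfals, which stabilises IGF in blood, -2.42 (SE 0.147).

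Complement and coagulation genes were lower: 27 of 36 were called lower and none higher, 75% against 8.82% of all genes, with a median of -1.09 beside -0.95 in treated wild type and -0.28 in PPARα-null samples. C8a, a subunit of the membrane attack complex, read 13.49 to 13.61 in untreated samples, 10.58 to 10.96 in treated wild type and 9.48, 8.83 and 8.70 in Clk/Clk samples. It was at -4.56 (23.5-fold, SE 0.174) from untreated and -1.73 (adjusted p = 1.04e-04) from treated wild type. C8b, its partner subunit, gave -3.73, C4bp, a complement inhibitor, -2.30, and coagulation factor F7 -1.93 (SE 0.0955). Against treated wild type 5 of the 36 were lower, 8 without Clk/Clk replicate 1. Acute phase genes gave 9 lower (36%, against 8.82% of all genes) and 2 higher (8%, against 10.6%) of 25. Their median was -0.44 (-0.25 without untreated replicate 1, -0.80 without untreated replicate 2, and -0.70 without Clk/Clk replicate 1). Among them Saa4 gave -2.86, Crp -1.69, Orm1 -2.16 and Itih4 -1.91.

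Bile acid genes were lower more often than higher, 12 against 3 of 27. That is 44.4% lower, against 8.82% of all genes, and 11.1% higher, against 10.6%. The median was -0.48 (-0.33 without Clk/Clk replicate 2 and -0.31 without Clk/Clk replicate 3). Cyp7a1, the rate-limiting enzyme of bile acid synthesis, read 11.66, 10.84 and 10.68 in untreated samples and 6.92, 8.70 and 6.02 in Clk/Clk samples, at -3.85 (14.4-fold, SE 0.65, adjusted p = 5.07e-04). Treated wild type read 5.50 to 7.56, overlapping the Clk/Clk samples. Cyp7b1 gave -3.17, Akr1d1, a steroid reductase of the pathway, -2.68 and the uptake transporter Slco1b2 -1.34. In the Cyp2c family 7 of 10 genes were lower (70%, against 8.82% of all genes) and 2 higher (20%, against 10.6%), with a median of -1.97. Of the 2 higher, 1 was called without Clk/Clk replicate 2 or 3 or untreated replicate 2 or 3. Cyp2c54 gave -5.12 (SE 0.33), less than the -6.65 of treated wild type (1.53 apart, adjusted p = 0.00668), whereas Cyp2c23 gave -3.56 (SE 0.383) beside -1.62 (-1.94 apart, adjusted p = 0.00418). Close relatives within the family could add to each other's signal on the array. In gluconeogenesis and glycogen metabolism 11 of 20 genes were lower (55%, against 8.82% of all genes) and 2 higher (10%, against 10.6%), with a median of -0.69. The 2 became 1 without Clk/Clk replicate 2 or untreated replicate 1, with either other normalization or with probe sets averaged. Slc2a2, the glucose transporter of liver, read 12.85 to 13.02 in untreated samples, 11.32 to 12.15 in treated wild type and 10.16, 9.82 and 8.87 in Clk/Clk samples, at -3.33 (SE 0.282) and -2.13 from treated wild type (adjusted p = 4.82e-04). Glycogen synthase Gys2 gave -1.23 (SE 0.0883) and Fbp1 -0.67 (SE 0.0675).

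Other large falls had no list of their own. Dio1, a deiodinase of thyroid hormone, read 10.27, 11.16 and 6.75 in untreated samples and 3.97, 4.69 and 3.85 in Clk/Clk samples, at -5.22 with a wide error (SE 1.18, adjusted p = 0.00362). Untreated replicate 3 lay far from the other two. Its difference from treated wild type (-4.23, adjusted p = 0.0235) missed the threshold when any of 4 samples was left out: adjusted p was 0.0613 without Clk/Clk replicate 1, 0.0677 without Clk/Clk replicate 3, 0.0674 without treated wild-type replicate 1 and 0.0528 without treated wild-type replicate 3. Fam47e (-6.00), B3galt1 (-5.35), Ugt2b38 (-4.97) and Hectd2os (-4.74) ended under the dim limit in Clk/Clk samples. Nrep gave -4.54 (SE 0.227), and -2.17 from treated wild type. Hsd17b13, a lipid droplet enzyme, showed 5.00 on its brightest probe set and -4.19 on its other, so no direction is given for the gene.

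NRF2 targets, which defend against oxidants, gave 14 higher (51.9%, against 10.6% of all genes) and 2 lower (7.41%, against 8.82%) of 27. The median was 0.60, beside 0.70 in treated wild type. In the direct test against treated wild type 6 of the 27 were lower, where 6.49% of all genes were, and none was higher. The median there was -0.41 (-0.19 without Clk/Clk replicate 3). The 6 became 3 without Clk/Clk replicate 2, with array medians made equal or with only those 6 arrays fitted. From untreated wild type Srxn1, which repairs peroxiredoxins, was at 2.66 (SE 0.2), the exporter Abcc4 at 3.20 (SE 0.288), Gsta4 at -2.42 and Gclm at -1.02. In ER stress 5 of 28 were higher (17.9%, against 10.6%) and 4 lower (14.3%, against 8.82%). The 5 became 3 without probe sets that may match several transcripts and the 4 became 9 without untreated replicate 2. The stress factors Trib3 and Atf5 were at 2.88 and 2.16, both above treated wild type (1.77 and 0.99), and Herpud1 at -1.38. Heat shock genes gave 3 higher and 2 lower of 15, 20% and 13.3% against 10.6% and 8.82% of all genes. The 2 became 4 without Clk/Clk replicate 1, 5 without untreated replicate 2, and 1 without Clk/Clk replicate 2 or untreated replicate 1 or 3. Targets of CAR and PXR, receptors of foreign compounds, gave 4 higher and 3 lower of 21, 19.0% and 14.3% against the same shares, with a median of -0.07 (0.06 without Clk/Clk replicate 3), among them Abcc3 at 1.33 and Sult5a1 at -2.92.

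Among nuclear receptors and liver factors 7 of 28 were lower (25%, against 8.82% of all genes) and 2 higher (7.14%, against 10.6%). The 2 became 1 without Clk/Clk replicate 2 or with another choice of probe sets. Esr1, the oestrogen receptor, read 10.17 to 10.72 in untreated samples, 8.15 to 8.49 in treated wild type and 5.98 to 6.39 in Clk/Clk samples, at -4.31 (19.8-fold, SE 0.174) and -2.22 from treated wild type (adjusted p = 2.60e-05), with no overlap. Ppara read 11.40 to 11.85 in untreated samples and 10.31 to 10.46 in Clk/Clk samples, at -1.19 (SE 0.142, adjusted p = 3.97e-05), and was not called against treated wild type (-0.41, adjusted p = 0.0561). Foxa3 gave -1.62, Cebpa -1.01 and Onecut1 -2.23. Hnf4a gave -0.62, a call lost without untreated replicate 1 (-0.56) or with probe sets that may match several transcripts left out (-0.21). Ribosomal protein genes gave 7 higher (25.9%, against 10.6% of all genes, or 12 genes with probe sets averaged) and none lower of 27, with all 27 differences positive (0.32 to 1.02, median 0.46); treated wild type had a median of 0.31. The respiratory chain gave 6 higher and none lower of 47, 12.8% against 10.6% of all genes. Lipoprotein genes gave 2 higher (9.52%, against 10.6%) and 5 lower (23.8%, against 8.82%) of 21.

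**Figure D5:**
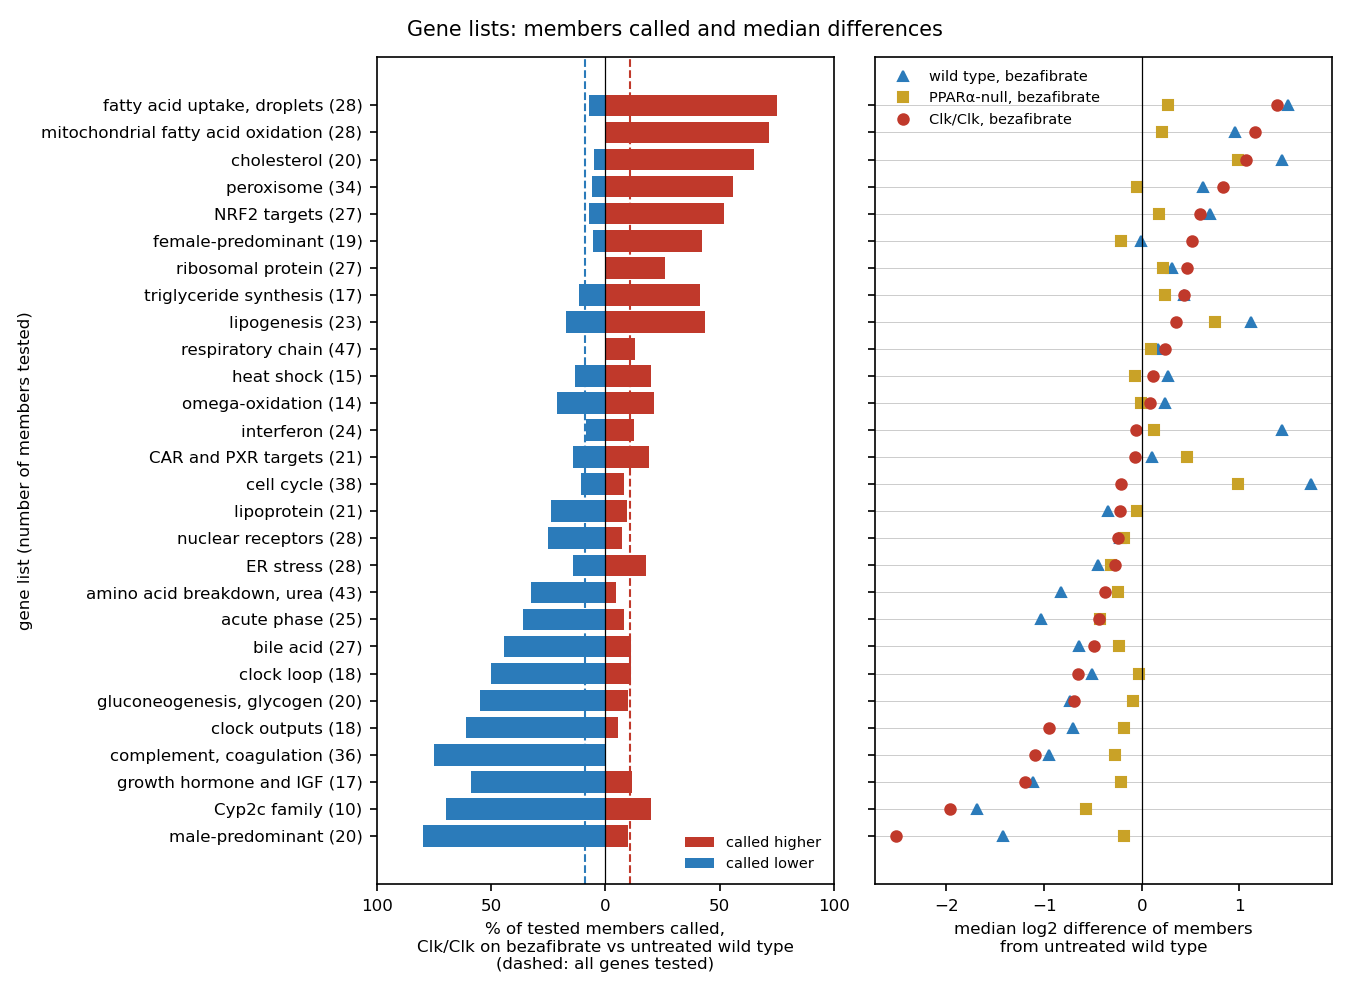
Left, the percentage of tested members of each of 28 gene lists called higher (red, to the right) or lower (blue, to the left) in Clk/Clk on bezafibrate against untreated wild type; dashed lines are the percentages over all genes, 10.6 and 8.82. Right, the median log2 difference from untreated wild type in the 3 treated groups. Male-predominant genes lie lowest (-2.52), fatty acid uptake highest (1.38), and cell cycle (-0.22) and interferon (-0.06) medians of Clk/Clk lie near 0 where treated wild type is at 1.74 and 1.43.

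Markers of other cell types were measured beside these results. In these whole-liver samples, fewer cells of a type and less RNA per cell cannot be told apart. Macrophage markers had a median of -0.45. Of 11, 1 was lower (9.09%, against 8.82% of all genes), Clec4f of Kupffer cells at -0.69 (adjusted p = 5.44e-04), and none higher, with a range of -0.70 to 0.17. The count was 3 without Clk/Clk replicate 3 or untreated replicate 2, and 2 without Clk/Clk replicate 1 or untreated replicate 1. It was also 3 with quantile normalization, equal array medians or array weights. Of 10 stellate cell markers 4 were lower (40%, against 8.82% of all genes, or 2 markers without probe sets that may match several transcripts). They included the collagens Col3a1 at -1.23 (SE 0.186) and Col1a2 at -0.81 (SE 0.139). Both collagens were also lower than in treated wild type (-1.32 and -0.79). Their calls against untreated wild type were lost once probe sets that may match several transcripts were left out (-0.78 and -0.31). Of 10 endothelial markers 1 was lower, 10% against 8.82% of all genes. This was Clec4g (-0.73, or -0.42 and not called with its probe sets averaged). Of 4 blood markers 1 was lower, 25% against 8.82% of all genes. This was Alas2, the haem enzyme of red cell precursors (7.80, 8.54 and 7.99 against 6.26, 5.26 and 5.80, a difference of -2.34, SE 0.28). S100a8 (0.81), S100a9 (0.64) and Ngp (-0.29) were not called, and the median of the list was 0.18. S100a8 was called higher when only the 6 arrays of the 2 groups were fitted (adjusted p = 0.0322). Lymphocyte markers had none called of 5 by limma (the lowest at -0.55), with 1 lower without Clk/Clk replicate 2 or untreated replicate 3. Of 3 cholangiocyte markers 1 was higher, 33.3% against 10.6% of all genes. This was Sox9 (0.64, not called without Clk/Clk replicate 1 at 0.44 or with its probe sets averaged at 0.46). Krt19 (-0.11) and Epcam (-0.22) were not called. Of 3 pancreas markers Cela1 was lower (-1.85), 33.3% against 8.82% of all genes, while Prss2 (0.39) and Ctrb1 (0.17) were not called. The 1 adipocyte marker tested was not called. The share of such cells in the results above was not tested.

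Genes near Clock, which may be inherited together with the mutant allele, were counted apart. How far such a stretch reaches is not given in the labels. Of the 200 tested genes nearest to Clock in RefSeq's gene order, 24 were higher (12%) and 25 lower (12.5%). Over all genes the shares were 10.6% and 8.82%. Of the 20 nearest, Srd5a3, a polyprenol reductase, was higher (1.18, SE 0.186) and Hopx, a homeodomain-only protein, lower (-1.09, SE 0.122). Both had differences of the same sign in treated wild type (1.09 and -0.61). Against treated wild type 4 of the 200 were higher and 17 lower, where 2.64% and 6.49% of all genes were. None of the 20 nearest was called there, although Hopx was with its probe sets averaged (-0.65).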

How the data were processed

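The authors deposited 1 table of log2 expression values for 45101 probe sets on 12 Affymetrix arrays, made with RMA per the submitters' processing notes, with no version stated in them. RMA corrects background, normalizes arrays to each other and summarises probes, which narrows differences near background and near saturation. Arrays were hybridised from 250 ng of liver RNA, per the labels. No scanner files were used, so the precision rests on 3 arrays a group.

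From these values, probe sets above their array's 40th percentile on at least 3 arrays were kept (28344), those with exactly 1 gene symbol in GEO's platform annotation were used (23888), and the brightest stood for its gene, which gave 13598 genes. All 12 arrays were fitted in limma 3.58.1 (R 4.3.3, lmFit and eBayes), with Benjamini-Hochberg adjustment over all genes. The pipeline was tested on simulated data. Members and lists were chosen with earlier results of these data known. Genes were named by rule: the 15 largest rises and falls without overlap, up to 4 genes of each of 37 lists by adjusted p, genes apart from both wild-type groups, genes changed in treated wild type and near untreated level in Clk/Clk, genes changed further in Clk/Clk, and a set of clock and PPARα genes. Alb, Apoa1, Ttr, Insig2 and Wee1 were added after their values were seen. Alternatives were filters, probe set choice, normalization, spread, weights, arrays fitted, a block, the fold threshold and leaving out each replicate. Promoter windows and gene order came from RefSeq on GRCm38.p6. Genes with no probe set of their own symbol were not analysed here.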

Additional observations from a re-analysis of the deposited data

Results flagged for a closer look

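Of the 224 genes named by rule, 9 differed at least 8-fold between Clk/Clk and wild-type liver when both had bezafibrate, by limma's test of that difference. The genes lower in Clk/Clk were Mme (-4.65 on the log2 scale, adjusted p = 1.33e-06), Dbp (-4.45), Dio1 (-4.23), Uhrf1 (-3.48), Usp2 (-3.25), Pnpla3 (-3.24), Zwilch (-3.17) and Chek1 (-3.04). Ptger3 was higher (4.09, adjusted p = 2.11e-05). The Clk/Clk means of Mme, Dio1, Uhrf1 and Zwilch, and the treated wild-type mean of Ptger3, were under the dim limit, so those sizes are not exact. The 9 were picked by their size and call in this contrast. That all 3 Clk/Clk samples lay on the same side of all 3 treated wild-type samples for each is therefore no further support. Dio1 had the widest error of them (adjusted p = 0.0235), and its adjusted p was 0.0528 to 0.0677 when Clk/Clk replicate 1 or 3 was left out, and when treated wild-type replicate 1 or 3 was.

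Probe sets without exactly 1 gene symbol were outside the gene counts. Of 4456 such probe sets past the filter, 371 were higher in treated Clk/Clk than in untreated wild type (8.33%) and 446 were lower (10.0%).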

How the results depend on the processing

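Against untreated wild type, the counts of 1447 higher and 1199 lower genes stayed within 1208 to 1486 and 1041 to 1293 under the alternative filters, probe set choices, normalizations, spreads, weights and arrays fitted. Testing every probe set gave 2821 and 2786, and a 2-fold threshold 630 and 512. Against treated wild type (359 and 882), every probe set gave 740 and 1697 and a 2-fold threshold 127 and 337. Leaving out each replicate gave 1395 to 1496 higher and 1148 to 1215 lower against untreated wild type, and 294 to 397 and 777 to 1024 against treated wild type. With the replicate number as a block the counts were 1446 and 1199, and 366 and 887. The numbers do not pair the samples: 3 of 18 same-number correlations of deviations exceeded 0.1 (-0.0924 to 0.125).

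Of 3764 alternative values of named genes against untreated wild type, 3694 kept their direction and call, 46 lost the call, 22 gained it and 2 turned: Arntl (-0.05) and Gpr135 (-0.18), both without probe sets that may match several transcripts. Against treated wild type 3661 kept it, 65 lost it, 37 gained it and 1 turned, Hsd17b13 (-0.97) with probe sets averaged. An uncalled gene that changed sign while uncalled was counted as unchanged. The causes were not tested. Limits are 3 arrays a group, sampling at ZT14 only, no untreated Clk/Clk samples, and levels under the dim limit, which bound no fold.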
